A study of Mus musculus with 24 samples.

Results

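H2-Ea, which encodes the I-E alpha chain, a class II antigen-presenting protein, was silent in most AIRmax lungs and expressed in a minority of them. The brightest probe for H2-Ea, which was also the only one, had a log2 signal above 10 in 4 of the 12 AIRmax lungs, called expressing here, and of 10 or below in the other 8, called silent. The lungs were thus chosen by this signal. These 12 lungs are part of a series of 24, in which the other 12 came from AIRmin mice. No label enters the division, so it is not a group of the study's design. The signals of H2-Ea are therefore a description, and what follows asks which other genes divided the AIRmax lungs in the same way.

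Class II molecules display peptides to CD4+ T cells and consist of an alpha and a beta chain. Mice have a pair of classical class II molecules, I-A (H2-Aa with H2-Ab1) and I-E (H2-Ea with H2-Eb1), and without the alpha chain the I-E beta chain does not reach the cell surface. Several inherited variants of the mouse MHC, that of C57BL/6 among them, carry a deletion at H2-Ea and make no I-E. AIRmax and AIRmin mice were derived by selective breeding for a strong and a weak acute inflammatory reaction from a population of intercrossed inbred strains, so that mice of 1 line need not share every allele. No genotype of these mice was used here, and the cause of the division was not tested.

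RNA came from normal lung parenchyma, with 1 Illumina bead array per mouse. Mice of both lines and sexes had received 2 intraperitoneal injections, 48 h apart, of saline or of urethane at 1 mg/g, an agent that gives mice lung tumours. Lungs were collected 21 days later, with 3 mice for each combination of line, sex and treatment. The 4 expressing AIRmax mice were saline females 11 and 22, saline male 9 and urethane female 5, and the 8 silent AIRmax mice were saline female 12, saline males 21 and 24, urethane females 4 and 6, and urethane males 1, 2 and 16. Status was thus not balanced over treatment (3 of 4 expressing and 3 of 8 silent mice had saline) or over sex (3 of 4 and 3 of 8 were female), and treatment was a term in each test. The 12 AIRmin mice (6 saline and 6 urethane) serve as the comparison line.

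Among the expressing mice the log2 signal of H2-Ea was 13.995 in mouse 11, 13.30 in mouse 22, 12.55 in mouse 9 and 13.29 in mouse 5. In the 8 silent mice it ran from 7.41 to 7.78 with a median of 7.57, and all 8 lay below the background limit of 7.94, the log2 signal under which a probe was taken as not measured. No lung lay between 7.78 and 12.55, the values on either side of the threshold of 10, and the gap of 4.78 exceeded the whole range of either group. With the silent mice at the limit, the mean of the expressing mice was at least 40.8-fold higher. In AIRmin all 12 lungs were above the limit, from 13.18 to 15.91 with a median of 15.53. AIRmin mice 18, 8 and 13, with 13.43, 13.66 and 13.18, lay within the range of the expressing AIRmax mice, and the other 9 AIRmin mice were at 15.27 or above. All 4 expressing AIRmax lungs were thus below 9 of the 12 AIRmin lungs. With a single probe, whether an allele differs under that probe was not tested.

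**Figure D1:**
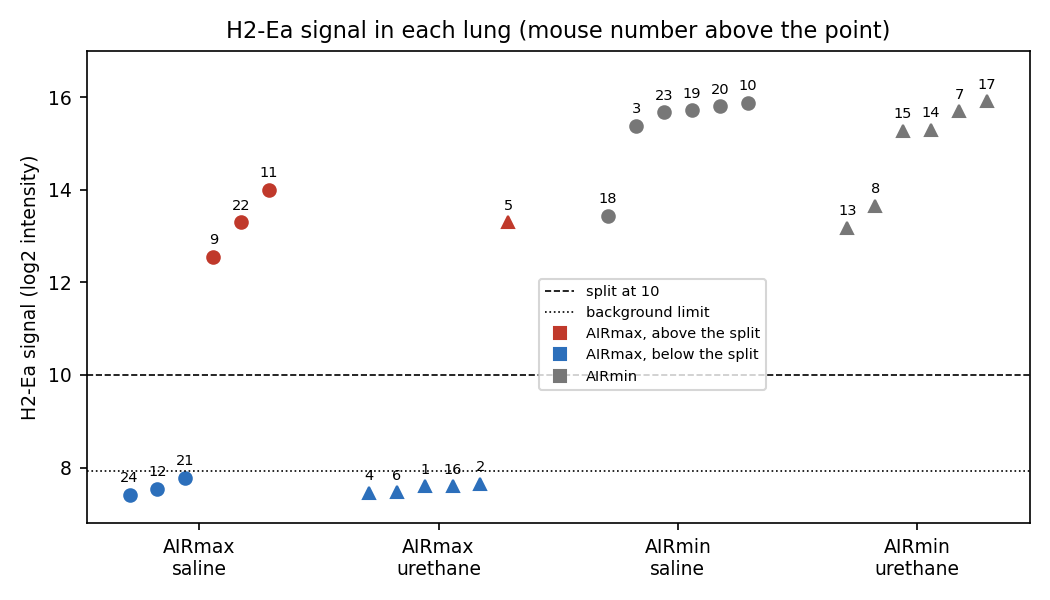
Log2 signal of H2-Ea (vertical axis) in each of the 24 lungs, by line and treatment, with the mouse number above each point. Circles are saline and triangles urethane mice, the dashed line is the threshold of 10 and the dotted line the background limit of 7.94. The 4 AIRmax lungs above the threshold lie between 12.55 and 13.995, and the other 8 AIRmax lungs lie below the background limit.

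Transcripts of other tissues were present in some libraries and were summarised by list scores (the mean log2 signal of a list's genes after subtraction of each gene's median over the 24 mice). Silent mouse 4 had scores of 5.95 for hepatocyte, 3.97 for squamous epithelium and 2.38 for skeletal muscle genes, and silent mouse 2 had a squamous score of 2.55. Among the expressing mice the highest squamous score was 1.07, in mouse 9, and the highest hepatocyte score 0.313. Correlations between AIRmax arrays ran from 0.936 to 0.993. In AIRmin, 1 library labelled female, mouse 20, had the male level of the Y-linked gene Ddx3y (12.8), and in AIRmax none did.

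The promoters of the class II genes next to H2-Ea, and of the MHC genes with the largest gap or difference described below, are shown because these genes lie in the same region of chromosome 17. Each sequence is the 250 bases before the gene's start in the RefSeq promoter table (build GRCm38.p6), 5′ to 3′ on the gene's strand, with CTGATTGG in capitals. This is the core of the Y box, a motif of class II promoters that the factor NF-Y binds, and it was searched on both strands (CCAATCAG on the other). H2-Aa lies at chr17:34287824-34288073 (reverse strand), H2-Eb1 at chr17:34305617-34305866 (forward strand), Psmb9 at chr17:34187331-34187580 (reverse strand) and Abhd16a at chr17:35089041-35089290 (forward strand).
H2-Aa: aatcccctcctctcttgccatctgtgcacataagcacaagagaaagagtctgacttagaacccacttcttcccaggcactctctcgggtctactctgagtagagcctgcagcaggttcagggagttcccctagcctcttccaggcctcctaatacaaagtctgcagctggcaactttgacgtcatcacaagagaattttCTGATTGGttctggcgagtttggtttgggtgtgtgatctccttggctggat
H2-Eb1: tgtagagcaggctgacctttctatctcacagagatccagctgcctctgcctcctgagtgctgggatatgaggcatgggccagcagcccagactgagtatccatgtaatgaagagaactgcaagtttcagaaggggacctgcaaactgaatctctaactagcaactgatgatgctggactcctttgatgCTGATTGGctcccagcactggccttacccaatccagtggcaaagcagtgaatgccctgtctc
Psmb9: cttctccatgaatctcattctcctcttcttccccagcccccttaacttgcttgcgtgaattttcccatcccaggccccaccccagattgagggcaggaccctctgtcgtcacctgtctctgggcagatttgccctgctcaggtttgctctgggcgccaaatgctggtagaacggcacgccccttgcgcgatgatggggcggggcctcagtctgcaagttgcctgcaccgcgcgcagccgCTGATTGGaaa
Abhd16a: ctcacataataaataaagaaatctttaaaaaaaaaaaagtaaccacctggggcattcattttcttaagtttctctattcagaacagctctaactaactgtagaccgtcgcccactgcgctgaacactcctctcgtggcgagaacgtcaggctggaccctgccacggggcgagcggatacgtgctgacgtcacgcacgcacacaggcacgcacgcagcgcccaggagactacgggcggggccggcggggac
The motif began 51 bases before the start of H2-Aa, 62 before that of H2-Eb1 and 11 before that of Psmb9, and it was not in the Abhd16a window. Of 32851 RefSeq promoters of this length, 1258 (3.83%) held it. These are reference sequences, not those of the AIRmax mice.

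Over the whole array, no gene passed the test of expressing against silent lungs. Of 17525 probes tested with limma, with treatment as a term and Benjamini-Hochberg adjustment over all of them, 0 had an adjusted p under 0.05 (0%), 686 (3.91%) had an unadjusted p under 0.05, and the lowest adjusted p was 0.764. The text therefore gives the values of each gene and whether the groups overlap, at each gene's brightest probe. All 4 expressing mice lay above or all below all 8 silent mice at 36 of 12667 genes (0.284%), above at 21 (0.166%) and below at 15 (0.118%). At 28 of these 36 genes the difference was under 0.5 on the log2 scale, and the gap between the groups was over 0.2 at LOC547343, Adam23 and Psmb9. At 2 of the 36 genes, Samsn1 among them, both edges of the gap lay below the background limit, so that a separation there was not measured. The probes of Samsn1 and Avpr1b passed the filter only through expressing mice, and that of Tcp10a only through silent mice. Their place among the 36 is therefore no support.

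The share of genes without overlap was larger near H2-Ea than elsewhere, a difference that was not tested. Within 50 protein-coding genes of H2-Ea on either side, 74 genes were tested and 4 did not overlap (5.41%), namely Psmb9, C4b, Stk19 and Abhd16a, all lower in the expressing mice. From 51 to 150 genes away, 0 of 117 did so, further away on chromosome 17 it was 4 of 415 (0.964%, 2 in each direction), and on other chromosomes 0.209% of 11507. The 4 further away include Tcp10a, whose probe passed the filter only through silent mice. The share with an unadjusted p under 0.05 was 14.9% within 50 genes, 9.4% from 51 to 150 genes, 6.51% further on chromosome 17 and 3.74% elsewhere. Most genes of the region nevertheless showed little difference, with a median of -0.02 within 50 genes of H2-Ea against 0.01 over all genes. Neighbouring genes share mice and arrays, and these shares are a description of 12 lungs.

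**Figure D2:**
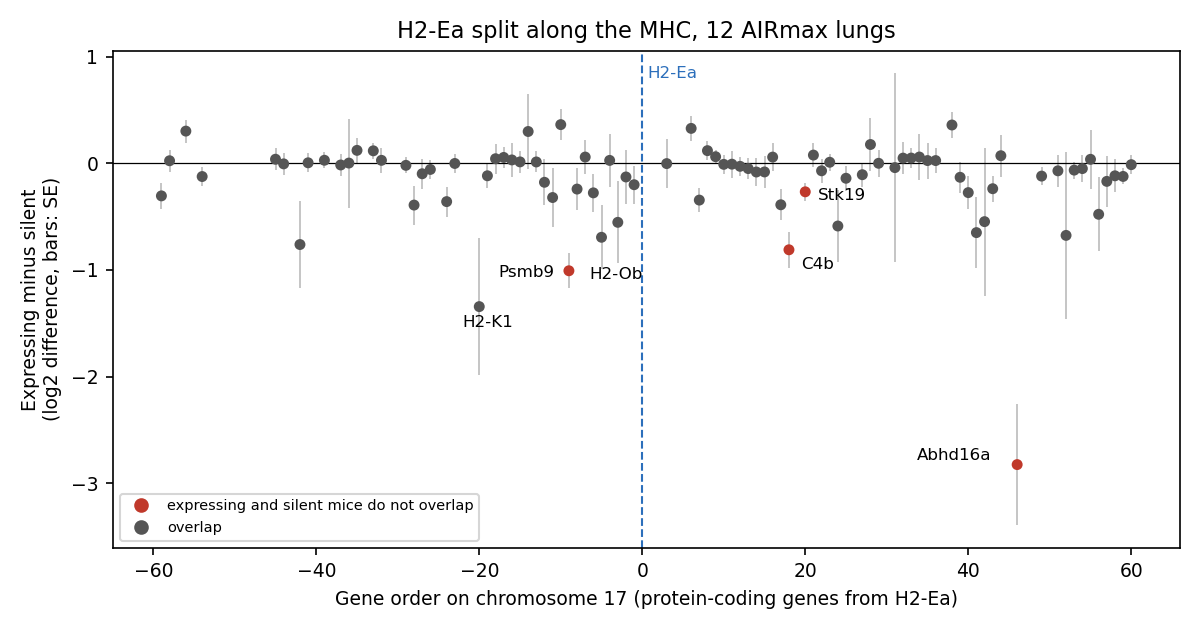
Log2 difference, expressing minus silent AIRmax lungs (points, with the limma standard error as bars), of each tested gene within 60 protein-coding genes of H2-Ea, by gene order on chromosome 17. Red points are genes at which the expressing and silent mice do not overlap. Psmb9 on 1 side and Stk19, C4b and Abhd16a on the other lie below 0, and most points lie near 0.

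The class II genes gave no division like that of H2-Ea. Of 18 genes listed as class II chains or loading factors, 16 were tested, 0 passed, 1 was higher (H2-DMb1) and 1 lower (H2-Ob) in expressing lungs at an unadjusted p under 0.05, against 2.09% higher and 1.97% lower among all genes, and the median difference was -0.14 (0.01 over all genes). No gene of the list was free of overlap, against 0.284% of all genes. H2-Eb1, the beta chain that pairs with H2-Ea, had log2 signals of 15.64, 15.11, 14.46 and 15.03 in mice 11, 22, 9 and 5. In silent mice it ran from 14.62 to 15.74 with a median of 15.44. The silent lungs, with no measured H2-Ea, thus carried H2-Eb1 in the range of the expressing lungs, and the difference was -0.13 ± 0.25 (log2, SE; limma adjusted p = 0.999).

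H2-Aa, the alpha chain of I-A, was at 13.79, 13.35, 12.58 and 13.35 in expressing mice 11, 22, 9 and 5. The silent mice spanned 12.72 to 14.47 with a median of 14.11. The groups overlapped, since silent mice 12 and 4 (12.72 and 12.87) were below 3 of the expressing mice, and the difference was -0.55 ± 0.38. H2-Ab1, the beta chain of I-A, differed by 0.03 ± 0.25 at its brightest probe and by -0.61 ± 0.22 and -0.41 ± 0.25 at its other tested probes, so its size is uncertain. Its brightest probe read 15.07 to 15.81 in expressing and 14.84 to 16 in silent mice.

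H2-Ob, the beta chain of H2-O, which restrains peptide loading, was at 10.62, 10.33, 9.22 and 9.62 in expressing mice 11, 22, 9 and 5. Silent mice ran from 9.47 to 11 with a median of 10.69, and the difference was -0.69 ± 0.30 (limma adjusted p = 0.999). Mouse 9 alone lay below every silent mouse. H2-DMb1, the beta chain of the loading factor H2-DM, read 13.74, 13.32, 13.11 and 13.37 in expressing mice and 12.79 to 13.36 in silent mice, with a difference of 0.36 ± 0.14. Its partner H2-DMa differed by -0.18 ± 0.22, and H2-DMb2, a further gene for that chain, by -0.32 ± 0.28. H2-Oa differed by 0.30 ± 0.35 and H2-Eb2 by -0.20 ± 0.18, and both overlapped. Ciita, the class II transactivator, differed by 0.14 ± 0.20. Cd74, the invariant chain that escorts class II molecules, read 15.94 to 16.1 in all 12 AIRmax mice, at the top of the range of the arrays (highest log2 signal 16.1), where a difference between groups cannot be read.

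Within the 4 expressing mice, those highest and lowest at H2-Ea were also highest and lowest at most class II genes. Order here means these ends only, since mice 22 and 5 were nearly level at H2-Ea (13.30 and 13.29). Mouse 11, the highest at H2-Ea, was the highest of the 4 at 15 of the 16 tested genes, and mouse 9, the lowest at H2-Ea, was the lowest at 13. Both held at 13 genes, H2-Aa, H2-Ab1, H2-Eb1, H2-Ob, H2-DMa and Ciita among them and Cd74, near the top of the range, included, where 12.5% of all 12667 genes had mouse 11 highest and mouse 9 lowest. The class II score was 0.702 in mouse 11, 0.376 in mouse 22, 0.358 in mouse 5 and -0.047 in mouse 9. T cell markers showed the same order at 16 of 17 tested genes, with a score of 0.658 in mouse 11 and of -0.493 in mouse 9, and B cell markers at 1 of 13. The order also held at 6 of 10 natural killer and cytotoxic, 9 of 17 interferon gamma response, 5 of 14 immunoproteasome and peptide transport and 5 of 17 class I genes. It held at 4 of 15 dendritic cell, 3 of 15 macrophage and monocyte, 8 of 48 class III and 1 of 17 neutrophil genes. In the flank next to H2-K1 it held at 3 of 32 genes and in the distal part of the MHC at 3 of 28, against 12.5% of all genes. This order was looked up after the values had been seen, it rests on 4 mice, and fewer cells of a type cannot be told apart from less RNA per cell in whole lung. The part of T cells in it was not tested.

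Psmb9 was the MHC gene that followed the division most evenly. It encodes the inducible subunit that replaces a constitutive one in the immunoproteasome, which cuts peptides for class I molecules, and its promoter (above) lies between it and Tap1. Its log2 signal was 12.91, 12.71, 12.04 and 12.30 in expressing mice 11, 22, 9 and 5, and 13.17 to 13.80 with a median of 13.46 in silent mice. Every expressing mouse was below every silent mouse. The difference was -1.01 ± 0.16 (limma adjusted p = 0.764, the lowest of all probes), it was between -1.12 and -0.87 with any single mouse left out, and it was -1.08 with the neutrophil score as a covariate. In AIRmin, Psmb9 ran from 8.94 to 10.39, below all AIRmax mice.

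Other genes of peptide supply did not show the gap of Psmb9. Of 15 listed genes, 14 were tested, 0 passed, Psmb9 was the only one with an unadjusted p under 0.05 or without overlap, and the median difference was -0.10. Tap1, which shares the stretch between the genes with Psmb9 and encodes a subunit of the peptide transporter, read 11.09, 10.56, 10.26 and 10.61 in expressing and 10.54 to 11.39 in silent mice, a difference of -0.24 ± 0.19. The partner subunit Tap2 differed by -0.28 ± 0.18 and overlapped. Psmb8, another immunoproteasome subunit of the same cluster, differed by 0.06 ± 0.16.

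In the class III region, which holds complement and other genes beyond H2-Ea, the groups were free of overlap at 3 of 48 tested genes (63 listed), against 0.284% of all genes. All 3, Abhd16a, C4b and Stk19, were lower in expressing mice. At an unadjusted p under 0.05, 5 of the 48 genes were lower and 2 higher, against 1.97% and 2.09% of all genes, 0 passed the adjusted test, and the median was -0.05. Among the others at that unadjusted level, Gpsm3 differed by -0.35 ± 0.11 and Notch4, an endothelial receptor, by 0.33 ± 0.12 at its brightest probe. The other tested probe of Notch4 gave -0.12 ± 0.07, so its direction is uncertain.

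Abhd16a, a phosphatidylserine lipase, had the largest difference of the MHC genes and divided the expressing mice themselves. Its log2 signal was 8.43, 8.31 and 8.56 in expressing saline mice 11, 22 and 9, and 12.08 in expressing urethane mouse 5. Silent mice ran from 12.20 to 13.15 with a median of 12.36, and AIRmin mice from 8.21 to 8.50. Mouse 5 thus lay near the silent mice and just below the lowest of them, while mice 11, 22 and 9 lay close to AIRmin. Over all 12 AIRmax mice the difference was -2.82 ± 0.57 (limma adjusted p = 0.999). Without mouse 5 it was -4.26 ± 0.17 (limma adjusted p = 6.42e-07), and in a fit of all 24 arrays it was -2.99 ± 0.42 (limma adjusted p = 0.00249). Abhd16a had 1 tested probe, which the array names Bat5, and it lies 46 protein-coding genes from H2-Ea.

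C4b, complement component C4, read 12.26, 12.22, 11.95 and 11.86 in expressing mice 11, 22, 9 and 5. The 8 silent mice lay between 12.32 and 13.35 with a median of 13.11, so the groups did not overlap, with silent mouse 12 (12.32) and silent mouse 24 (12.64) nearest to the expressing mice. The difference was -0.81 ± 0.17, and without mouse 5 it was -0.51. AIRmin mice ran from 11.83 to 13.03, a range that held every expressing mouse, while the silent median of 13.11 lay above every AIRmin mouse. C4b has the near-identical copy C4a, whose probe was not tested, so the gene measured is uncertain. Stk19, which encodes a nuclear protein and lies between C4b and Abhd16a in gene order, differed by -0.27 ± 0.09 at its brightest probe and by 0.01 and -0.01 at its other probes, so its lack of overlap held at 1 of 3 probes.

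Class I genes, whose products display peptides to CD8+ T cells, showed levels within the silent group that did not match H2-Ea. H2-K1, a classical class I heavy chain, read 11.36, 11.33, 10.87 and 10.76 in expressing mice 11, 22, 9 and 5. In silent mice 12, 4 and 1 it was 13.87, 13.80 and 14.18, and in the other 5 silent mice it ran from 11.18 to 11.81. The 5 lower silent mice bordered on the expressing mice, and AIRmin mice also lay on separate levels, from 10.66 to 14.66. AIRmin mice 18, 8 and 13, whose H2-Ea lay within the range of the expressing AIRmax mice, were low at H2-K1 (11.1, 11.3 and 10.7). The other AIRmin mice were at 13.5 or above. A relation between H2-K1 and H2-Ea was not tested. The difference was -1.34 ± 0.64 (limma adjusted p = 0.999).

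H2-T23, the nonclassical class I molecule Qa-1, read 14.35, 14.28, 13.59 and 14.35 in expressing mice. Silent mice ran from 14.27 to 15.32 with a median of 14.62, and silent mice 12 and 4 (15.32 and 15.26) stood above the others. The difference was -0.57 ± 0.23, with overlap. These are values of the brightest probe. At the other tested probe mouse 24 was the highest silent mouse (13.77), and mice 12 and 4 (13.71 and 13.58) did not stand apart. There the difference was -0.519 ± 0.265, also with overlap. Of 27 listed class I genes 17 were tested, 0 passed, 2 were lower (H2-T23 and H2-Q2) at an unadjusted p under 0.05 (all genes 4.06% in either direction), none was free of overlap, and the median was close to 0 (-0.004).

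The probe that the array names LOC547343 could not be matched to a current gene or a chromosome, so what it measures is not known here. It read 11.34, 10.97, 10.67 and 10.85 in expressing mice 11, 22, 9 and 5. Among silent mice it ranged from 11.82 to 14.27 with a median of 12.42. Mice 12 and 4, at 14.27 and 14.17, were the highest, as at the brightest probe of H2-T23. Its gap was the widest among the 36 genes without overlap, with a difference of -1.92 ± 0.48 (limma adjusted p = 0.999).

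Farther from H2-Ea on chromosome 17 the differences were of similar size, with a median size of 0.090 within 50 genes of H2-Ea, 0.096 from 51 to 150 genes and 0.088 further away. Beyond 150 genes 1 of 415 genes, Trem3, differed by 1 or more in size, with -1.16 ± 0.44 and overlap. In the flank next to the class I end that holds H2-K1, 32 of 47 listed genes were tested and had a median of 0, with 1 gene higher (Tulp1, 0.52 ± 0.17) and 1 lower (Wdr46, -0.36 ± 0.14) at an unadjusted p under 0.05, a share near the 4.06% of all genes. In the distal part 28 of 40 genes were tested, with a median of -0.02, and 2 were higher and 1 lower at that level. There Zfp57, an imprinting regulator, differed by 0.41 ± 0.12 and Ddr1, a collagen receptor, by -0.41 ± 0.16. Glo1, the glyoxalase that detoxifies methylglyoxal and is also on chromosome 17, read 13.53, 13.93, 13.30 and 14 in expressing mice 11, 22, 9 and 5 and 12.94 to 13.65 in silent mice. Its difference of 0.59 ± 0.14 (limma adjusted p = 0.999) came with overlap at silent mouse 4 (13.65).

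**Figure D3:**
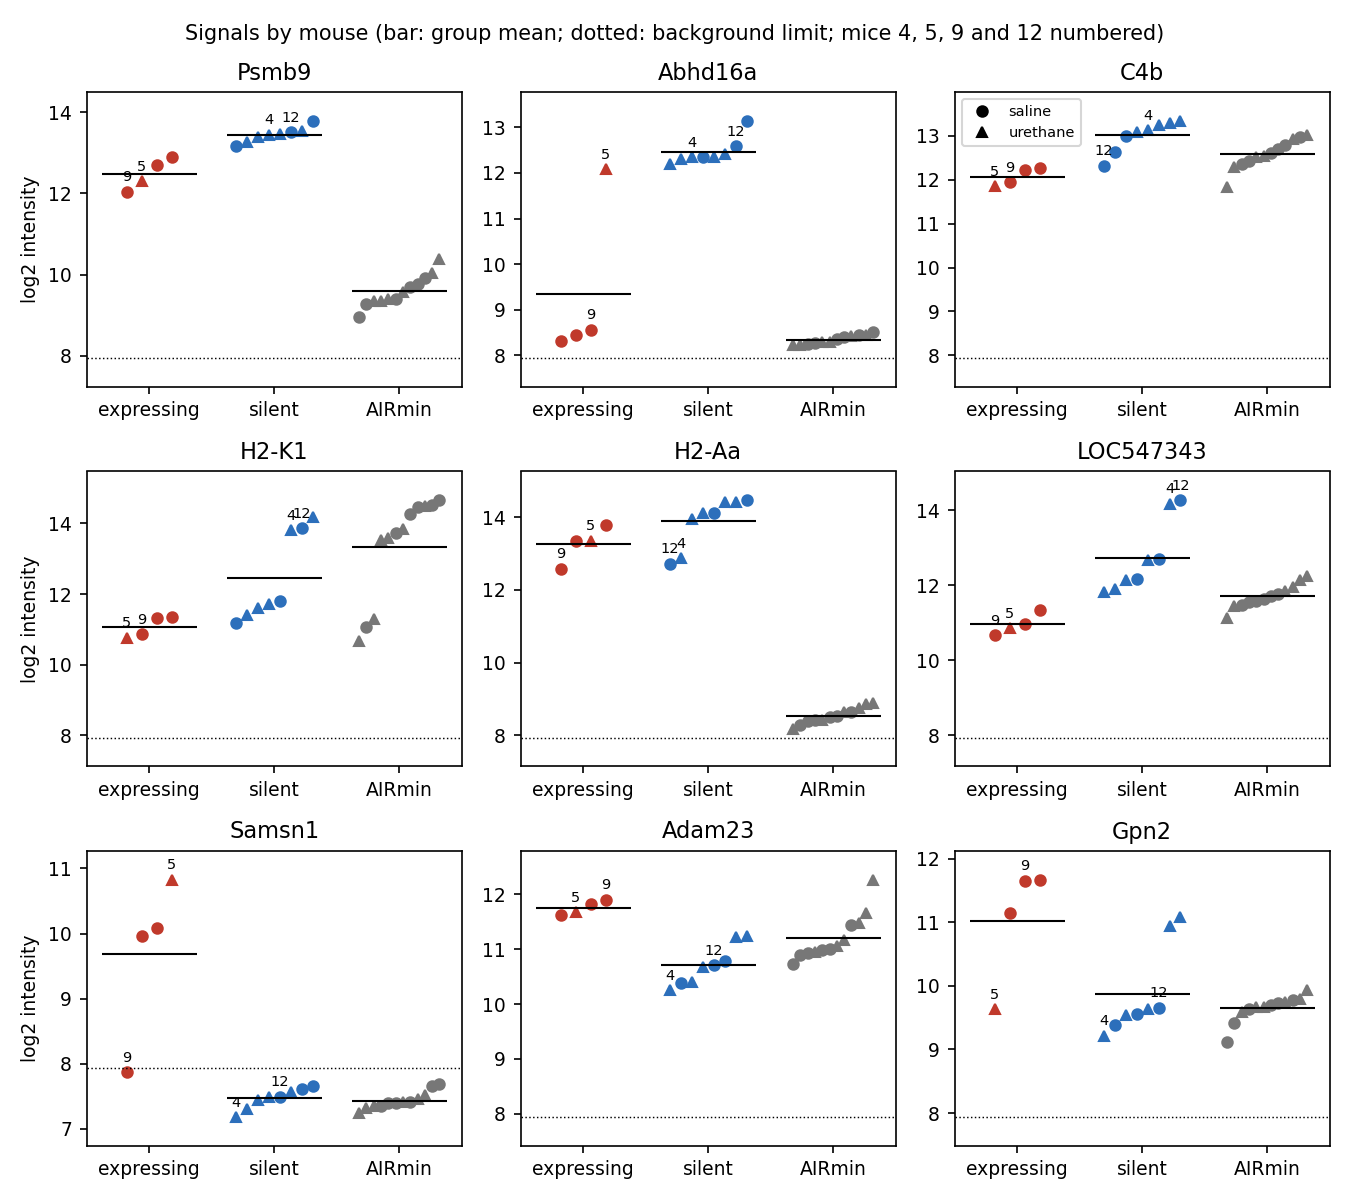
Log2 signal (vertical axes) of 9 genes in each expressing (red), silent (blue) and AIRmin (grey) lung, sorted within each group, with bars at the group means, the background limit dotted, circles for saline and triangles for urethane. Psmb9 separates all 4 expressing from all 8 silent lungs, Abhd16a places mouse 5 beside the silent lungs, and H2-K1 and LOC547343 place silent mice 4 and 12 apart from most other silent lungs.

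On other chromosomes no probe passed, and 0.209% of 11507 genes were free of overlap, against 0.284% of all genes. Of the genes described in this and the next paragraph, Samsn1 and Adam23 were without overlap, and Sema5a and Cmss1 overlapped. Avpr1b, Crip2, Gkn1, Lamtor4, Dmrtc1a and Bach1, named further below, were also without overlap. Samsn1, an adaptor protein of lymphocyte signalling on chromosome 16, read 10.09, 9.96, 7.87 and 10.83 in expressing mice 11, 22, 9 and 5. In silent mice it ran from 7.18 to 7.66 with a median of 7.49, and in AIRmin from 7.25 to 7.70, all below the background limit. Only mice 11, 22 and 5 were above the limit, and mouse 9, the lowest at H2-Ea, was below it. The mean of the expressing mice was at least 3.37-fold higher than that of the silent mice taken at the limit (limma adjusted p = 0.869). Its probe was tested only because these 3 expressing mice were above the limit, so that a difference between the groups followed from the filter. The probe passed without mouse 9 (limma adjusted p = 7.46e-05) and in the fit of all 24 arrays (limma adjusted p = 0.00223), which for the same reason adds no support. Samsn1 was measured by 1 tested probe.

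Adam23, a brain-enriched member of the ADAM family on chromosome 1, read 11.82, 11.62, 11.90 and 11.68 in expressing mice. Silent mice ran from 10.25 to 11.25 with a median of 10.70, without overlap. The difference was 1.07 ± 0.20 (limma adjusted p = 0.869), between 0.98 and 1.15 with any single mouse left out. AIRmin mice ran from 10.73 to 12.27, around every expressing mouse, while the silent median lay below every AIRmin mouse. Against AIRmin, expressing mice differed by 0.61 ± 0.20 (limma adjusted p = 0.108) and silent mice by -0.53 ± 0.16 (limma adjusted p = 0.0334). The call in silent mice was lost without mouse 1, 2, 4 or 21, among other alternatives. Sema5a, a guidance protein on chromosome 15, was lower in 3 of the 4 expressing mice, at 9.22, 8.92 and 8.86 in mice 22, 9 and 5, against 11.36 in mouse 11 and 10.77 to 12.10 in silent mice. Its difference was -1.79 ± 0.46, and a further probe gave -1.65 ± 0.46. Cmss1 was above the background limit in 8 of 8 silent mice and in 1 of 4 expressing mice, mouse 11, which overlapped with the silent mice. With the other 3 expressing mice taken at the limit, the mean of the silent mice was at least 1.93-fold higher (limma adjusted p = 0.999). Its probe reached the filter through the silent mice, so this difference is no support.

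By the size of their correlation with H2-Ea over the 12 AIRmax arrays, the 5 most alike genes were Samsn1, Adam23, Avpr1b, Crip2 and Gkn1, and the 5 most opposed were Psmb9, Abhd16a, BC066107, Lamtor4 and Dmrtc1a. Because the mice form 2 clusters at H2-Ea, no coefficient is given. The ranking uses the signals that made the division, so it is a description and no support. Crip2, Lamtor4, Avpr1b, Gkn1 and Dmrtc1a differed by at most 0.25 in size. Of these, Avpr1b was above the background limit in 4 of 4 expressing and 0 of 8 silent mice, Gkn1 in 4 and 3, and Dmrtc1a in 1 and 8, so their sizes were not measured. Like that of Samsn1, the probe of Avpr1b was tested only through the expressing mice, so a difference between the groups followed from the filter. The probe of Dmrtc1a reached the filter through the silent mice, so its difference is no support either. BC066107, an array name that could not be matched to a current gene, differed by -0.39 ± 0.09. The line differences Gbp2b, a guanylate-binding GTPase, and Cops8, a signalosome subunit, did not follow the division, at 0.18 ± 0.30 and -0.02 ± 0.29.

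Among the cell type lists, neutrophil markers had the largest median difference. Of 17 tested markers (20 listed), 0 passed, 12 were lower and 0 higher in expressing mice at an unadjusted p under 0.05, against 1.97% and 2.09% of all genes, and the median was -0.92. None was free of overlap. The neutrophil score was 0.070, 0.353, -0.221 and -0.278 in expressing mice 11, 22, 9 and 5. It ran from -0.530 to 1.93 with a median of 0.620 in silent mice and was highest in males 24 (1.93), 1 (1.34), 21 (1.12) and 2 (0.777). Silent females 12, 4 and 6 lay at 0.462, -0.530 and 0.014 and silent male 16 at 0.071. Female 12 was thus above every expressing mouse and above male 16. The expressing group held 1 male and the silent group 5.

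Il1b, the cytokine interleukin-1 beta, read 10.28, 11.25, 10.52 and 10.15 in expressing mice 11, 22, 9 and 5, and 10.20 to 13.54 with a median of 11.96 in silent mice, a difference of -1.68 ± 0.45 (limma adjusted p = 0.999). Cxcr2, a neutrophil chemokine receptor, differed by -1.88 ± 0.58. With sex as a further term the difference was -1.32 for Il1b and -1.31 for Cxcr2. With the neutrophil score as a covariate the difference of Psmb9 was -1.08 and that of Abhd16a -2.45, and for H2-Aa it was 0.01 in place of -0.55. S100a9, Retnlg and Csf3r, further neutrophil markers, differed by -1.77 ± 0.64, -1.89 ± 0.73 and -1.67 ± 0.54. Not all markers did so. Ltf differed by 0.66 ± 0.59, Camp by -0.50 ± 0.38, Lcn2 by -0.38 ± 0.31, Ngp by -0.38 ± 0.41 and Trem1 by -0.01 ± 0.14. How far neutrophil content accounts for other differences was not tested beyond these values.

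**Figure D4:**
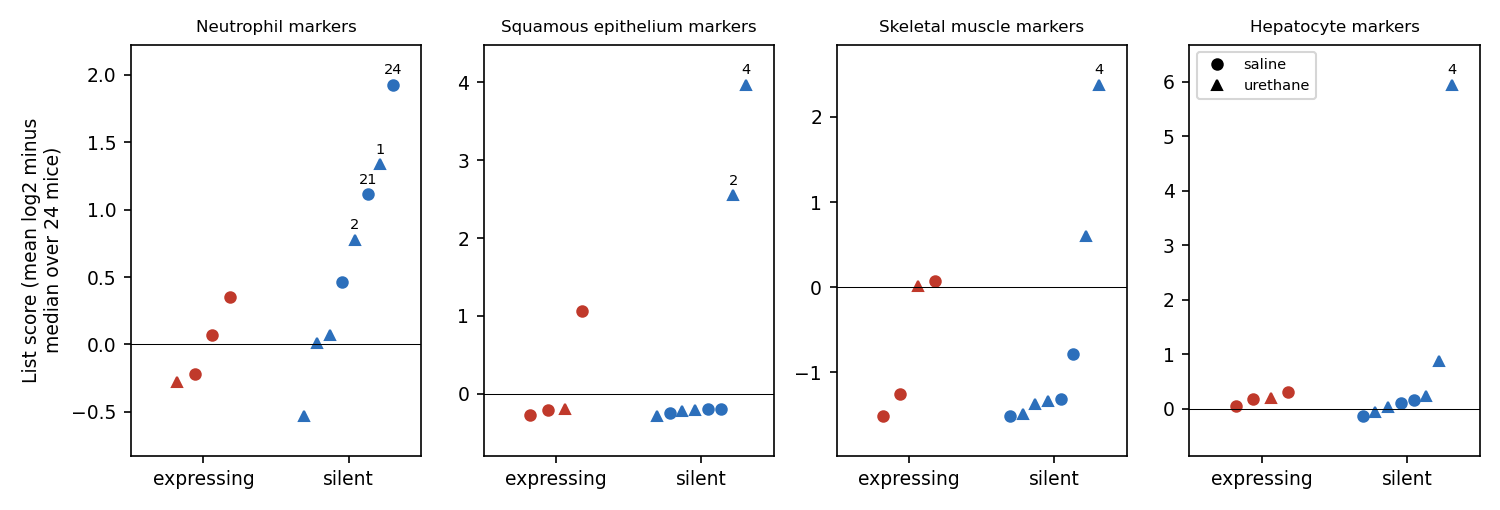
List scores (mean log2 signal after subtraction of each gene's median over the 24 mice) of neutrophil, squamous epithelium, skeletal muscle and hepatocyte markers in each expressing (red) and silent (blue) AIRmax lung. Circles are saline and triangles urethane mice. The neutrophil scores of the expressing mice (-0.278 to 0.353) lie within the wider range of the silent mice (-0.530 to 1.93), and mouse 4 has the highest squamous, muscle and hepatocyte scores.

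Of the other lists, those of immune and lung cells had 0 or 1 gene at an unadjusted p under 0.05, against 4.06% of all genes, so these counts are read as no result about the lists. There were 0 of 13 B cell, 0 of 15 dendritic cell, 0 of 17 T cell and 0 of 10 natural killer and cytotoxic markers, and their medians were -0.12, -0.05, -0.20 and -0.004. Of 15 macrophage and monocyte markers 1 was lower, Ear2, an eosinophil-associated ribonuclease of lung macrophages, by a difference of -0.37 ± 0.11. Ear12 belongs to the same family of near-identical genes, so the gene measured is uncertain, and it differed by -0.91 ± 0.19 without overlap. Of 17 interferon gamma response genes 1 was higher, the GTPase Ifi47, with 11.39, 12.02, 10.58 and 11.39 in expressing mice 11, 22, 9 and 5 and 8.24 to 12.09 in silent mice. Its difference was 1.90 ± 0.70 with overlap at silent mice 6 and 16 (10.67 and 12.09). Of 11 lung epithelium markers 1 was higher, the surfactant protein gene Sftpa1, by 0.72 ± 0.23, with silent mice from 13.95 to 15.67 around the expressing mice.

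Setting each AIRmax group against the 12 AIRmin mice showed where the expressing lungs stood relative to the other line. Both comparisons use the same AIRmin mice and are therefore given side by side only. Of 17525 probes, 642 (3.66%) passed for expressing against AIRmin mice, 383 higher (2.19%) and 259 lower (1.48%), and 1710 (9.76%) passed for silent against AIRmin mice, 840 higher (4.79%) and 870 lower (4.96%). Transcripts of other tissues differed between the lines, with a median squamous score of -0.197 in expressing, -0.201 in silent and 3.05 in AIRmin mice and a median skeletal muscle score of -0.618, -1.32 and 1.20. With squamous, skeletal muscle and hepatocyte scores as covariates the counts were 453 and 622. With the neutrophil score they were 661 and 434. The groups hold 4 and 8 mice, so these counts were not compared.

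H2-Aa was higher than in AIRmin by 4.76 ± 0.26 in expressing mice (limma adjusted p = 2.07e-11) and by 5.32 ± 0.21 in silent mice (limma adjusted p = 6.70e-15). H2-Ob was above the background limit in 3 of 12 AIRmin mice. With the other 9 taken at the limit, it was at least 3.83-fold higher in expressing and at least 5.64-fold higher in silent mice (limma adjusted p = 5.21e-06 and 3.74e-10). Psmb9 was higher by 2.91 ± 0.19 and by 3.86 ± 0.15 (limma adjusted p = 6.62e-10 and 6.70e-15). At these 3 genes every expressing lung, like every silent lung, was above every AIRmin lung.

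Abhd16a differed from AIRmin by 1.09 ± 0.39 in expressing mice (limma adjusted p = 0.14) and was higher by 4.08 ± 0.30 in silent mice (limma adjusted p = 2.47e-09). Samsn1 was below the background limit in all 8 silent and all 12 AIRmin mice, so these were not compared, and the expressing mice were at least 3.37-fold above the AIRmin mice taken at the limit (limma adjusted p = 1.51e-05, on a probe tested only through the expressing mice). Sema5a was lower than AIRmin by a difference of -2.64 ± 0.35 in expressing mice (limma adjusted p = 4.22e-05) and differed by -0.83 ± 0.27 in silent mice (limma adjusted p = 0.0591), which passed without mouse 6, 11 or 16 (limma adjusted p = 0.04, 0.00869 and 0.045). Glo1 was lower in both, at -0.79 ± 0.11 and -1.38 ± 0.08 (limma adjusted p = 4.34e-05 and 5.27e-11).

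Over the lists, 3 of 16 class II genes (H2-Aa, H2-Ab1 and H2-Ob) were higher and 0 lower in expressing than in AIRmin mice, and 6 higher and 0 lower in silent than in AIRmin mice, against 2.22% and 4.91% of all genes higher and 1.59% and 5.36% lower. The H2-Ab1 call depends on the probe. At its brightest probe its differences from AIRmin were 3.38 ± 0.90 and 2.88 ± 0.71 (limma adjusted p = 0.0346 and 0.0105). At the second they were 1.16 ± 0.61 and 1.97 ± 0.48 (limma adjusted p = 0.359 and 0.00981), and at the third 0.20 ± 0.39 and 0.73 ± 0.30 (limma adjusted p = 0.865 and 0.135). In expressing mice the call at the brightest probe was lost without any 1 of the 4 mice (adjusted p from 0.0623 to 0.111) and with the scores of other tissues (0.264). In silent mice it was lost with those scores (0.226) and with the neutrophil score (0.184).

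The probes of H2-Ab1 also ordered the AIRmin mice differently. AIRmin mice 20, 10 and 19 read 8.35, 8.67 and 8.67 at the brightest probe but 14.71, 14.73 and 14.71 at the second. Mice 18, 8 and 13, the AIRmin mice with the lowest H2-Ea, read 14.16, 14.37 and 13.91 at the brightest probe but 11.45, 11.48 and 10.81 at the second. Whether alleles differ under these probes was not tested.

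Of 17 neutrophil markers, 1 was lower (Fpr2) and 0 higher in expressing than in AIRmin mice, against 1.59% lower and 2.22% higher among all genes. In silent mice 9 were higher than in AIRmin mice, Il1b, Cxcr2 and Retnlg among them, and 0 lower, against 4.91% higher and 5.36% lower among all genes.

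Whether the division looked the same after urethane rests on mouse 5, the only expressing mouse given urethane. The interaction of status with treatment passed for 4 of 17525 probes (0.0228%), those of Abhd16a, Gdpd3, Uap1 and Atp6v1d. For Abhd16a the division in urethane mice minus that in saline mice was 4.02 (limma adjusted p = 0.000225), with the values given above. Gdpd3, a lysophospholipase D, read 9.68, 9.60 and 9.85 in expressing saline mice 11, 22 and 9 and 13.23 in mouse 5, against 9.53 to 10.06 in silent mice, an interaction of 3.54 (limma adjusted p = 0.000225).

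Uap1, which makes UDP-N-acetylglucosamine, read 12.13, 12.24 and 11.85 in the expressing saline mice and 9.54 in mouse 5, against 12.09 to 12.42 in silent mice, an interaction of -2.50 (limma adjusted p = 0.000677). Atp6v1d, a proton pump subunit, was at 10.63 in mouse 5 and at 12.35 to 13.26 in all other AIRmax mice, an interaction of -2.93 (limma adjusted p = 0.00555). At all 4 genes mouse 5 stood apart from the other expressing mice, and at Gdpd3, Uap1 and Atp6v1d from all AIRmax mice. AIRmin mice ran from 8.65 to 10.14 at Gdpd3, from 9.18 to 12.53 at Uap1 and from 10.42 to 12.63 at Atp6v1d. With 1 mouse in that cell, an effect of urethane and a property of mouse 5 cannot be told apart.

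Among saline mice alone, 3 expressing against 3 silent, 2 of 17525 probes passed (0.0114%). Abhd16a was lower in the expressing mice by a difference of -4.26 ± 0.20 (limma adjusted p = 0.000891). Gpn2, a GTPase of chromosome 4, was higher by 1.96 ± 0.16 (limma adjusted p = 0.0297), at 11.67, 11.15 and 11.65 in mice 11, 22 and 9 against 9.65, 9.39 and 9.55 in mice 12, 21 and 24. Gpn2 did not divide the urethane mice in this way, since mouse 5 read 9.63 and silent mice 1 and 16 read 10.94 and 11.08. At Psmb9 the saline mice differed by -0.94, close to the value over all 12 AIRmax mice.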

How the data were processed

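Lung RNA of 24 mice was hybridised to 24 Illumina arrays. The authors deposited a table of linear signal intensity for 25697 probes, and the submitters' processing notes name BeadStudio. The sorted values differed by at most 0.871% between arrays, so they were used as normalized, with log2 taken and no further step. No source used here says how background was treated before deposit. A further 72 per-array columns carry slide and position names that fit no sample label and were left out, so slide could not be a batch term and detection p-values could not be a filter. Gene symbols came from the deposited probe annotation and were checked with RefSeq names of GRCm38.p6 (20440 current, 4255 updated, 1002 kept).

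The background limit is the upper 0.01 quantile of a normal background (mode 7.425, SD 0.2197, log2). Probes above it on at least 3 of the 12 AIRmax arrays were tested, except that of H2-Ea, which left 17525 probes of 12667 genes. Linear models with treatment as a term were run in limma 3.58.1 (R 4.3.3) with its eBayes step, P-values received Benjamini-Hochberg adjustment across the tested probes, and probes were called at an adjusted p under 0.05. The same steps were tested on simulated data. Mice carry separate numbers and were taken as separate animals. The number of arrays limits the precision, and a fold against arrays below background is a bound, with those arrays taken at the limit.

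The members and the 20 gene lists were chosen with earlier results of these data known. The genes named are any called ones, a set list of MHC genes, the 5 highest and 5 lowest in correlation with H2-Ea, and up to 2 of each other list by p. LOC547343, Sema5a, Glo1, Trem3, Cmss1, Ear12, Stk19, Zfp57, Ddr1, Gpsm3, Tulp1, Wdr46 and the interaction genes were named after their values were seen, as were those named beside a count. Btnl2, C4a and H2-D1 had no tested probe. Alternatives were an offset, other filters, sex, no treatment term, a trended robust prior, array weights, scores of other tissues and each mouse left out in turn. The neutrophil score, the fit without mice 2 and 4 and the alternatives for the overlap counts were chosen after seeing the data.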

Additional observations from a re-analysis of the deposited data

Results flagged for a closer look

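Among 158 groups of 4 or 8 mice checked for a mouse far from the rest, 16 (10.13%) held one. Chance gives about 1 in 20 in groups not chosen for their values, and some of these genes were chosen for theirs, so the share is not a comparison with chance. Mouse 5 accounted for 6 of them, 4 at the genes named because the interaction that rests on mouse 5 passed there. It was the highest expressing mouse at Abhd16a (log2 signal 12.1, next 8.56), Gdpd3 (13.2, next 9.85), Ear2 (14.1, next 13.9) and Bach1 (11, next 10.8), and the lowest at Uap1 (9.54, next 11.9) and Atp6v1d (10.6, next 13). Mouse 4, with its high score of hepatocyte markers, accounted for 4 among the silent mice, the highest at the hepatocyte genes Fgg (14, next 9.75) and Cyp2e1 (15.9, next 12.8) and at Glycam1 (8.59, next 7.93) and the lowest at H2-Ob (9.47, next 10.3). Silent mouse 24 was the highest at Abhd16a (13.1, next 12.6) and the lowest at Avpr1b (7.78, next 7.86), and silent mouse 6 the highest at Cchcr1 (9.72, next 9.55). Expressing mouse 9 was the lowest at H2-T23 (13.6, next 14.3), mouse 22 the highest at Crip2 (15.9, next 15.8) and mouse 11 the highest at Sema5a (11.4, next 9.22).

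The limma interaction of status with treatment, whose urethane arm holds 1 expressing mouse, passed at Abhd16a (4.02, adjusted p = 0.000225), Gdpd3 (3.54, adjusted p = 0.000225), Uap1 (-2.50, adjusted p = 0.000677) and Atp6v1d (-2.93, adjusted p = 0.00555). All 4 rest on mouse 5, without which none could be fitted, so that they describe this mouse and an effect of urethane cannot be told apart from it.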

How the results depend on the processing

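The count of probes that passed for expressing against silent lungs was 0 under every alternative run except these: 2 in the fit of all 24 arrays (Abhd16a and Samsn1), 2 among saline mice only (Abhd16a and Gpn2), and 0 to 1 with each mouse left out, the 1 being Abhd16a without mouse 5 and Samsn1 without mouse 9. Probes called for expressing against AIRmin mice (642) were 1219 with array weights and 378 to 798 with each mouse left out (378 without mouse 5, 380 without 9, 426 without 11). For silent against AIRmin mice (1710) they were 2970 with array weights, 622 with squamous, skeletal muscle and hepatocyte scores, and 434 with the neutrophil score as a covariate. The interaction count (4) was 7 with no filter and 1 with the scores of other tissues. Genes without overlap (36) were 57 with no filter, 22 on the authors' filtered probes, and 44 to 121 with each mouse left out, where fewer mice leave more room for separation (121 without mouse 5, 120 without 11, 118 without 9, 98 without 22, 81 without 12, 74 without 16 and 60 without 1). No alternative run turned the direction of a called value. Among the values of named genes and directional counts under the alternatives, 5624 kept their side of the threshold or their size, 68 newly passed, 48 no longer passed and 20 counts moved by over 1.5 times. The cause of these changes was not tested. No paired analysis was possible because the mouse numbers are unique and no number is shared between groups. Signals near the background limit, as at Samsn1 in mouse 9 or Dmrtc1a, give bounds rather than levels.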
